A study of Mus musculus with 11 samples.

Results

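Fecal miRNAs of mice on day 5 of acute colitis were compared with those of mice before the colitis was induced. The comparison rests on 7 of the 11 libraries of the study, chosen by the phase in their labels and by no measured value. Of these, 4 were made from feces taken before treatment and 3 from feces taken after 5 days of 2.5% dextran sulfate sodium (DSS) in the drinking water. The 4 others were from the recovery phase, after 7 days on plain water. They entered the fits to help estimate the spread. They also had a part in the filter on low counts, which set the rows tested, and in the scaling. Fits that left libraries out kept the same tested rows. All animals were of strain C57BL/6, and the labels give no age, no sex and no further allele or agent. DSS is a sulfated polymer that damages the lining of the colon and brings on bleeding, ulcers and an influx of immune cells. There were no feces from untreated mice on day 5, so the effect of DSS and that of the sampling day cannot be told apart. The labels do not say whether each library stands for another mouse, or whether mice were followed from before DSS to day 5. P-values therefore measure the spread between these samples, which may be technical. Libraries are named here by phase and column number, which is 1 to 4 before DSS and 1, 3 and 4 on day 5.

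A miRNA is a short RNA that guides an Argonaute protein to messenger RNAs, mostly by pairing through its seed, here bases 2 to 8 counted from the 5′ end. Many miRNAs are restricted to few cell types. Feces hold RNA of shed gut epithelium, of blood and immune cells that enter the gut lumen, of digestive secretions and of food. A fecal miRNA profile is therefore a mixture of sources. In such bulk samples fewer cells of a type and less RNA per cell cannot be told apart, and each value is a share of the miRNA reads of its library, so that a larger share of some miRNAs lowers the share of others.

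The mature sequences of the miRNAs on which the results turn are given 5′ to 3′, with the seed in capitals, from the RefSeq annotation of GRCm38.p6. The blood cell miRNAs shown are those among the 10 rows of smallest p with higher values on day 5.
miR-223-3p: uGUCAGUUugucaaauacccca
miR-142a-3p: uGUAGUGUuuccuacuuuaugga
miR-142a-5p: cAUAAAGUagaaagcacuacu

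The next set holds miRNAs of inflammation, red blood cells and proliferation with higher values on day 5, and miR-146b-5p as a relative for comparison. It shows that miR-146a-5p shares its seed with miR-146b-5p, and miR-15b-5p with miR-16-5p.
miR-146a-5p: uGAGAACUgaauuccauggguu
miR-146b-5p: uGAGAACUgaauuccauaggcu
miR-451a: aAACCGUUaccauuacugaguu
miR-15b-5p: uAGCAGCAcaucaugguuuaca
miR-16-5p: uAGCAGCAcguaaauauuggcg
miR-106b-3p: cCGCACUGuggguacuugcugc
miR-25-3p: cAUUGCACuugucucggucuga

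Members of the let-7 family are shown because they share a seed and had fold changes of opposite sign. Counted from the 5′ end, let-7c-5p differs from let-7i-5p by U12G, G17A, C18U and U19G (the base of let-7i-5p first), all outside the seed.
let-7i-5p: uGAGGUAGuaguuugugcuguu
let-7c-5p: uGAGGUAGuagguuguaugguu

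The last set holds miRNAs with lower values on day 5, and the relatives they are compared with. miR-215-5p differs from miR-192-5p by C1A, A12U and C20A, outside the seed. miR-200b-3p differs from miR-200a-3p by C4U, U9C, C17U and U22A, of which C4U lies inside the seed.
miR-148a-3p: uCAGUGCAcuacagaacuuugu
miR-192-5p: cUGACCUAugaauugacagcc
miR-215-5p: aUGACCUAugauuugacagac
miR-200a-3p: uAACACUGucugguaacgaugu
miR-141-3p: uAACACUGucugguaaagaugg
miR-200b-3p: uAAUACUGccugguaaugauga
miR-5126: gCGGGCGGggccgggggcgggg
miR-3473a: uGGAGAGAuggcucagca

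The deposited table had 616 rows, 544 with a miRNA name and 72 with a number only. The total count was 13240 to 30418 in the 4 libraries before DSS and 11749 to 17872 in the 3 of day 5. At these totals 3 counts, the limit that a count of 0 allows, stand for 98.6 to 255 CPM, which are counts divided by the library total and put on a fixed scale. Such limits, and the confidence intervals, are for counting error alone, as no molecular identifiers were read. Before-DSS library 2 stood apart from its group, with a median correlation of 0.853 with the other libraries where those had 0.964 to 0.966. A fit without it and without the recovery libraries was chosen after the data were seen. Values from that fit are given for rows whose groups overlapped and that passed the adjusted threshold in it. They are therefore a selection and no support for these rows. With before-DSS library 2 alone left out, 0 rows passed. The labels name no batch.

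No miRNA passed an adjusted p of 0.05 on day 5 against before DSS, by edgeR's quasi-likelihood test with Benjamini-Hochberg adjustment over 137 rows (0% called). An unadjusted p under 0.05 was reached by 34 rows (24.8%), 18 with higher values on day 5 (13.1%) and 16 with lower values (11.7%). DESeq2 called 5 rows (3.65%), of which miR-223-3p, let-7i-5p, miR-106b-3p and novel_249 were higher (2.92%) and miR-5126 was lower (0.73%), and limma-voom called 0, with 27 at an unadjusted p under 0.05. The verbs rose and fell are therefore not used of any single miRNA below, and values are given in their place. Over all 137 rows the median log2 fold change was 0.03 and the median standard error 0.52, with 70 rows above 0 and 67 below. Where CPM are given they are scaled by the composition factors of edgeR (TMM). With library totals alone the log2 fold changes were higher by a median of 0.38, the unadjusted calls were 22 higher (16.1%) and 7 lower (5.11%), and 11 rows passed adjustment, all higher (8.03%). Directions of fold changes between -0.38 and 0 therefore depend on the scaling.

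The count of 34 unadjusted calls depended on single libraries. It was 22 with before-DSS library 1 left out, 19 with before-DSS library 4 left out, 17 without day 5 library 3 and 19 without day 5 library 4. Without day 5 library 3 only 1 of the 17 was a lower value. When the recovery libraries and before-DSS library 2 were all left out, a choice made after seeing the data, 29 rows passed the adjusted threshold (21.2%), 14 of which rose (10.2%) and 15 fell (10.9%). miR-340-5p, with 64, 11, 48 and 61 counts before DSS and 23, 22 and 18 on day 5, had a log2 fold change of -0.77 ± 0.73 (SE) with all libraries and -0.996 in that fit (edgeR adjusted p = 0.0341). miR-690 had 6, 67, 2 and 11 counts before DSS and 31, 23 and 16 on day 5, with a log2 fold change of 0.20 ± 0.93 (SE) with all libraries and 2.30 in that fit (edgeR adjusted p = 0.02395). Library 2 was below every day 5 library for miR-340-5p and above every one for miR-690, and both rows were chosen after their values were seen. Leaving out the recovery libraries alone gave 0 calls, with 39 rows (28.5%) at an unadjusted p under 0.05. The groups did not overlap in TMM-scaled CPM for 19 rows with higher values (13.9%) and for 6 with lower values (4.38%), 18.2% in all. Of the unadjusted calls, 14 of the 18 higher rows and 5 of the 16 lower rows had groups that did not overlap. Rows that repeat a measurement are counted separately in these numbers and in the percentages over all rows. Among them are miR-142b, with the counts of miR-142a-3p, and miR-122b-3p, with those of miR-122-5p.

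**Figure D1:**
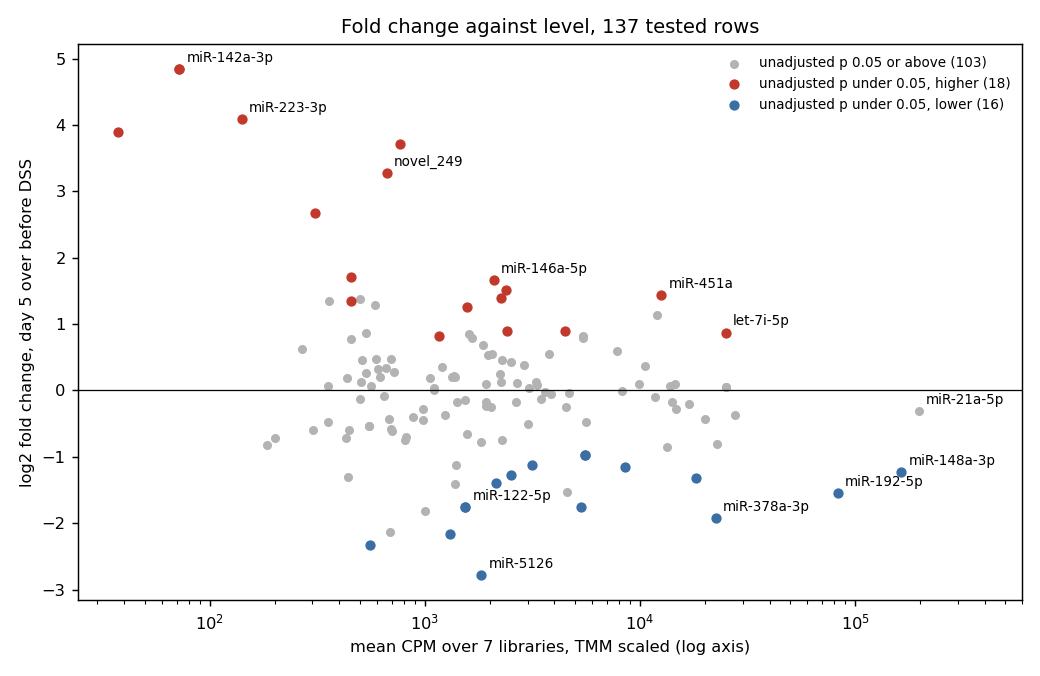
The log2 fold change of day 5 over before DSS (vertical axis) is plotted against the mean TMM-scaled CPM over the 7 libraries (horizontal log axis) for the 137 tested rows. Red and blue points are the 18 higher and 16 lower rows with an unadjusted p under 0.05, none of which passed adjustment; the fold changes above 2 belong to rows of low level.

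The leukocyte miRNAs miR-223 and miR-142a had few counts before DSS and more on day 5. Rows near 0 before DSS passed the filter on low counts through the later groups, so the size of their fitted fold changes is no support. miR-223-3p, which marks neutrophils and other myeloid cells, had 0, 0, 0 and 1 counts in before-DSS libraries 1 to 4 and 6, 3 and 6 in day 5 libraries 1, 3 and 4. Every day 5 library was above every library before DSS, although none held more than 6 counts. The pooled ratio of CPM was 32.8 (exact 95% interval 5.05 to 1382, counting error only). Its fitted log2 fold change was 4.09 ± 0.90 (SE, edgeR adjusted p = 0.0831), the smallest of the 137. Its DESeq2 adjusted p was 0.0106, a call. The fitted value was 5.72 without before-DSS library 4, the source of its 1 count. The other arm of the same hairpin, miR-223-5p, had 0 counts before DSS and 1, 0 and 3 on day 5, where day 5 library 3 overlapped with the earlier group.

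miR-142a is made in all blood cell lineages. Its 5p arm had 1, 1, 0 and 5 counts before DSS and 12, 7 and 10 on day 5. The groups did not overlap, and the log2 fold change was 2.68 ± 0.90 (SE, edgeR adjusted p = 0.155). Without before-DSS library 4, which held 5 of the 7 earlier counts, it was 3.92. The 3p arm had 0 counts in every library before DSS and 3, 1 and 4 on day 5, which was at least 5.84-fold higher in pooled CPM than the limit of 3 counts over the earlier group, with the counting error of the 8 counts left out. The edgeR adjusted p of the 3p arm was 0.155. The row miR-142b held the same counts as the 3p arm in all 11 libraries, and its hairpin lies on the opposite strand of the same locus, so it is not a separate measurement.

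miR-181a-5p, known from lymphocyte development and also made in other tissues, stood at 2088, 2233, 1520.3 and 1194 CPM before DSS and 3160.3, 3625 and 3055 CPM on day 5. Day 5 values were all higher, with a log2 fold change of 0.90 ± 0.41 (SE, edgeR adjusted p = 0.198). Among the leukocyte miRNAs below the filter, miR-150-5p of mature lymphocytes had 2, 0, 1 and 0 counts before DSS and 3, 1 and 4 on day 5. miR-342-3p had 3, 5, 3 and 2 counts before DSS and 3, 4 and 0 on day 5, and its groups overlapped. miR-155-5p, which activated immune cells induce, was at 0 in all libraries but day 5 library 4, which held 2 counts.

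All 8 rows of the leukocyte list were detected and 5 were tested, each higher at an unadjusted p under 0.05 (18 of 137 rows over the whole table). This count is no support for the list, because both arms of miR-223 and of miR-142a had at most 7 counts in the whole earlier group and passed the filter on low counts through the later groups. The summed share of the 8 rows, which needs no filter, was 0.181, 0.317, 0.165 and 0.115% of the counts in before-DSS libraries 1 to 4 and 0.481, 0.586 and 0.621% in the day 5 libraries. Every day 5 library lay above every library before DSS, and before-DSS library 2 was the highest of its group. More of the share came from miR-181a-5p than from the arms of miR-223 and miR-142a in each library.

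**Figure D2:**
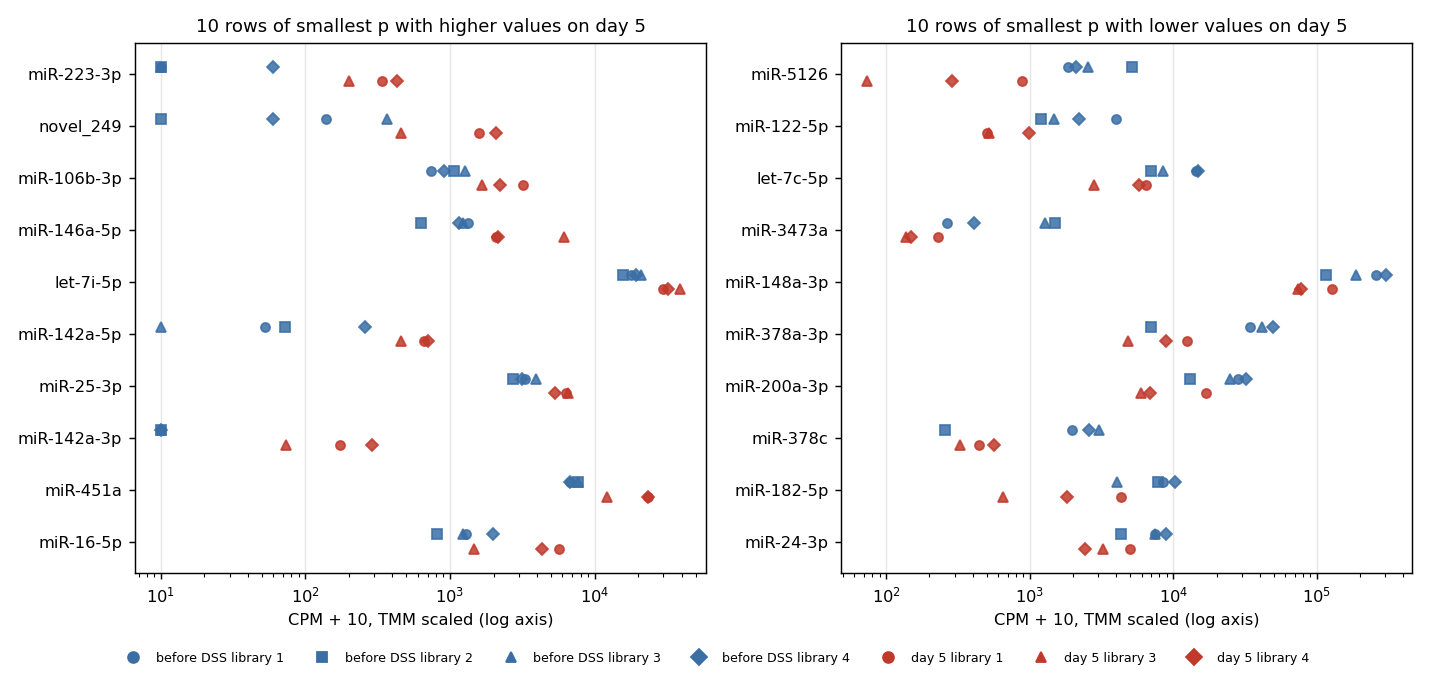
TMM-scaled CPM plus 10 (horizontal log axis) in each of the 7 libraries is shown for the 10 higher and the 10 lower rows of smallest p, with blue for before DSS, red for day 5 and a marker shape for each column number. The groups are apart for 9 of the 10 higher rows, all but miR-16-5p, and for 4 of the 10 lower rows. Over all 137 tested rows they are apart for 13.9% with higher and 4.38% with lower values. The rows shown were picked by p in the same libraries, so these numbers are no support.

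Of the miRNAs that inflammation induces, miR-146a-5p and miR-147-3p had higher values on day 5 and miR-21a-5p and miR-146b-5p overlapped. miR-146a-5p, which dampens signalling from Toll-like receptors, stood at 1321, 620.2, 1216 and 1144 CPM before DSS and 2071, 6105 and 2152 CPM on day 5. There was no overlap of the groups, but day 5 library 3 held most of the difference. Its log2 fold change was 1.66 ± 0.52 (SE, edgeR adjusted p = 0.155), and 0.96 without that library. miR-146b-5p, with the same seed, stood at 1272 ± 125 CPM (SD, n = 4) and 1480.5 ± 582 CPM (SD, n = 3). Its log2 fold change was 0.21 ± 0.45 (SE, edgeR adjusted p = 0.832). The difference between these relatives was not tested.

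miR-147-3p, which is induced in stimulated macrophages, stood at 1321, 558, 1166 and 2239 CPM before DSS and 4359, 3498 and 2638 CPM on day 5. Every day 5 library was above the earlier group, with a log2 fold change of 1.40 ± 0.52 (SE, edgeR adjusted p = 0.164). miR-21a-5p, common in inflamed and growing tissue, was the most abundant row of 6 of the 7 libraries. It made up 20.9, 15.7, 18.4 and 19.4% of the counts before DSS and 20.1, 20.4 and 20.02% on day 5. The groups overlapped, with p = 0.286 in an exact two-sided permutation test of the share. Its log2 fold change was -0.31 ± 0.46 (SE) with TMM factors and 0.14 with library totals alone, so its direction depended on the scaling. Of the 7 rows of this list 6 were detected and 4 tested, with 2 higher at an unadjusted p under 0.05 (13.1% of all rows), 0 lower and a median log2 fold change of 0.81, where all rows had 0.03.

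MiRNAs of red blood cells took a larger share of the counts in each day 5 library. miR-451a, an erythroid miRNA cut from its hairpin by Argonaute 2 without Dicer, stood at 6775, 7690.5, 7703 and 6716 CPM before DSS. On day 5 it stood at 23321, 12147 and 23329.8 CPM. The earlier values lay close together and the lowest day 5 value, in library 3, was above all of them. On the log2 scale the difference was 1.44 ± 0.51 (SE, edgeR adjusted p = 0.155). Leaving out recovery library 4 alone, miR-451a and miR-223-3p were the 2 rows that passed the adjusted threshold.

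miR-144, made from the same transcript as miR-451a, was at 0 in all libraries before DSS in both arms. Its 3p arm had 7, 0 and 0 counts on day 5 and its 5p arm 2, 0 and 3, so neither was seen in every day 5 library. miR-486a-5p, abundant in red cells and in muscle, stood at 2939.9, 5954, 4764 and 2935 CPM before DSS and 8881, 5215 and 7429 CPM on day 5. The groups overlapped through before-DSS library 2, with a log2 fold change of 0.79 ± 0.55 (SE, edgeR adjusted p = 0.409), and 1.09 with an edgeR adjusted p of 0.0362 in the fit without that library and the recovery libraries. The rows miR-486a-3p and miR-486b-3p held nearly the same counts, so the 3 rows of miR-486 stand for 1 measurement. miR-16-5p, plentiful in red cells and present in most tissues, had 30, 13, 24 and 40 counts before DSS and 104, 23 and 62 on day 5. Day 5 library 3 overlapped with the earlier group, and the log2 fold change was 1.52 ± 0.55 (SE, edgeR adjusted p = 0.164). With miR-486 counted once, the list had 3 tested rows, 2 higher at an unadjusted p under 0.05 (13.1% of all rows) and 0 lower, with a median of 1.44. Its summed share, with miR-486 again counted once, was 0.848, 1.76, 1.31 and 0.8396% before DSS and 3.94, 2.38 and 4.32% on day 5. The groups did not overlap. With all rows of miR-486 the shares were 1.295, 3.21, 2.21 and 1.26% and 5.76, 3.702 and 6.15%, and the median of 5 tested rows was 0.81.

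The miR-17-92 clusters are a set of related polycistrons linked to cell proliferation, and the miR-106b, miR-93 and miR-25 hairpins form 1 of them, within the gene of the replication factor Mcm7. Each of these 3 hairpins gave a tested row with a higher value on day 5. miR-106b-3p had 17, 17, 25 and 18 counts before DSS and 59, 26 and 32 on day 5, a log2 fold change of 1.26 ± 0.36 (SE, edgeR adjusted p = 0.126). miR-25-3p stood at 3281, 2729, 3953 and 3134 CPM before DSS and 6321, 6551 and 5346 CPM on day 5, a log2 fold change of 0.89 ± 0.30 (SE, edgeR adjusted p = 0.155). The groups did not overlap for either, nor for miR-93-5p, with a log2 fold change of 0.83 ± 0.38 (SE, edgeR adjusted p = 0.198). DESeq2 called miR-106b-3p. The 5p arm of miR-106b was below the filter, with 5, 1, 7 and 10 counts before DSS and 3, 3 and 2 on day 5, and did not share the direction of the 3p arm.

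In the miR-17 and miR-20a members of the paralogous cluster on chromosome 14 the log2 fold changes were 0.07 and -0.08, with standard errors of 0.58 and 0.42. miR-92a-3p, which is made there and on chromosome X, had 0.60 ± 0.39 (SE). miR-363-3p, from the X-linked cluster, had 1.34 ± 0.61 (SE, edgeR adjusted p = 0.198). Of 16 rows in this list 13 were detected and 7 tested, with 4 higher at an unadjusted p under 0.05 (13.1% of all rows), 0 lower and a median of 0.83. The groups did not overlap, with higher day 5 values, for 5 of the 7 (13.9% of all rows). Among the 4 and the 5 is miR-363-3p, with 3, 5, 7 and 6 counts before DSS. It passed the filter on low counts through the later groups, so these numbers of rows are no support for the list. The summed share was 0.976, 1.62, 1.43 and 0.854% before DSS and 2.098, 3.05 and 2.49% on day 5, and all day 5 libraries were above the earlier group.

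**Figure D3:**
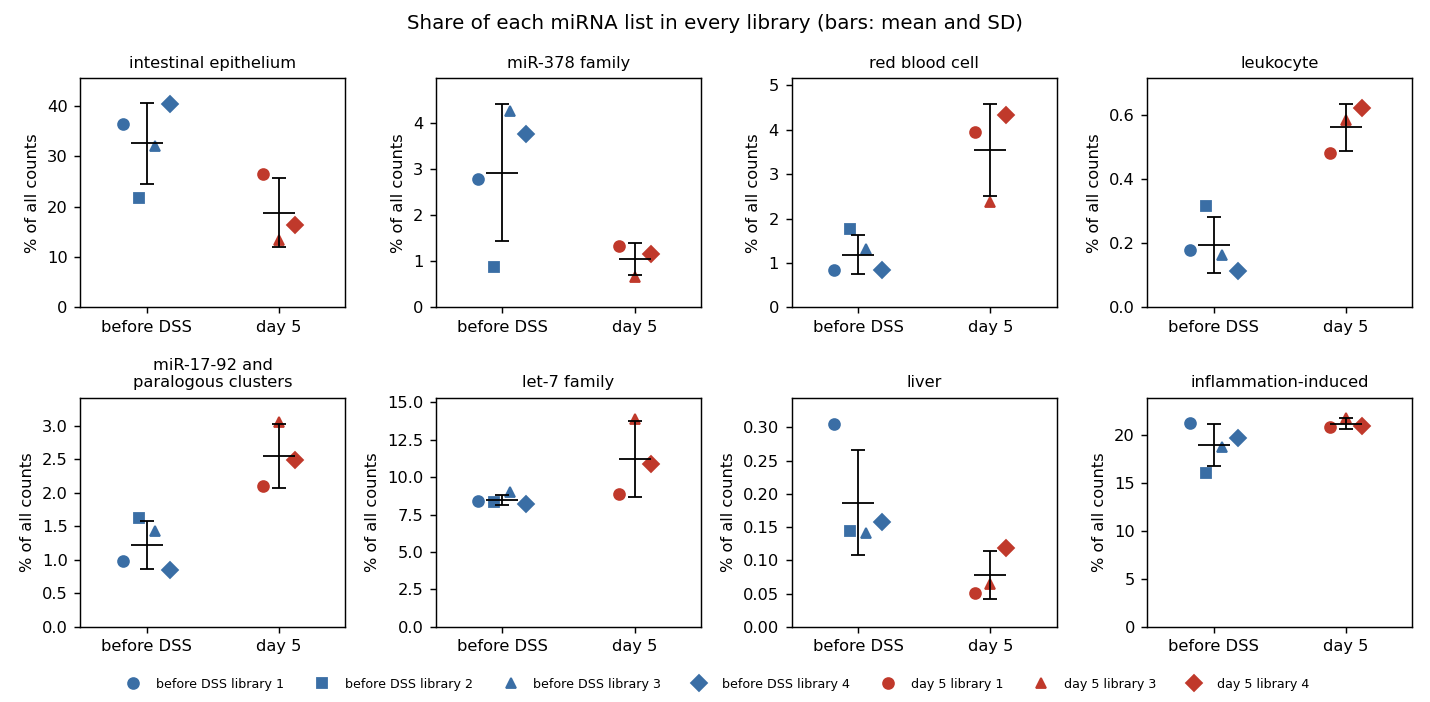
Each panel gives the summed share of a miRNA list in percent of all counts of the library (vertical axis, from 0, miR-486 counted once), with a point for each library and bars for the mean and SD of 4 libraries before DSS and 3 on day 5. The groups are apart, with higher day 5 values, for the leukocyte, red blood cell and miR-17-92 lists, and with lower values for liver; before-DSS library 2 lies nearest to the day 5 libraries for the epithelium and miR-378 lists.

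Of the miRNAs of the intestinal epithelium, miR-148a-3p, miR-192-5p and miR-215-3p had lower values on day 5. Their groups overlapped in TMM-scaled CPM. miR-148a-3p, abundant in gut epithelium, stood at 259438, 114923, 188513 and 305034 CPM before DSS and 126628, 74283 and 77141 CPM on day 5. Only before-DSS library 2 fell within the range of day 5, and by library total the groups did not overlap. This gave a log2 fold change of -1.23 ± 0.47 (SE, edgeR adjusted p = 0.166). In the fit without before-DSS library 2 and the recovery libraries it was -1.35, with an edgeR adjusted p of 0.0284.

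miR-192-5p, a miRNA of differentiated gut epithelium, had 3411, 476, 2105 and 3622 counts before DSS and 1328, 300 and 390 on day 5. Before-DSS library 2 had a lower CPM than day 5 library 1, so the groups overlapped. Its log2 fold change was -1.55 ± 0.68 (SE, edgeR adjusted p = 0.195), and -2.32 without day 5 library 1. In the fit without before-DSS library 2 and the recovery libraries it was -1.76 (edgeR adjusted p = 0.0341), and miR-215-3p had -1.56 (edgeR adjusted p = 0.0341). miR-215-5p, with the same seed, had -0.80 ± 0.59 (SE, edgeR adjusted p = 0.439), and -1.59 without day 5 library 1. miR-194-5p, which shares hairpin clusters with miR-192 and miR-215, had -0.42 ± 0.52 (SE, edgeR adjusted p = 0.684), and -0.057 with library totals alone.

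All 7 rows of the intestinal epithelium list were detected and 5 were tested, with 0 higher and 3 lower at an unadjusted p under 0.05 (miR-148a-3p, miR-192-5p and miR-215-3p) and a median of -1.23. Over all rows 11.7% were lower calls, and 5.11% with library totals alone, where the median of the list was -0.78. The summed share was 36.4, 21.6, 32.01 and 40.4% in before-DSS libraries 1 to 4 and 26.5, 13.4 and 16.5% on day 5. Before-DSS library 2 lay below day 5 library 1 and the other 3 lay above every day 5 library. The red blood cell and leukocyte shares of before-DSS library 2 were the highest of its group, so this library was nearest to day 5 on all 3 lists. Since the shares of a library add up, the part that a larger share of other miRNAs had in these lower values was not tested.

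The miR-200 family holds cells in an epithelial state by repressing Zeb1 and Zeb2. Its members fall into 2 seed groups, which were summed apart. The counts of miR-200a-3p and miR-141-3p, with the seed AACACUG, gave a log2 fold change of -1.31 ± 0.54 (SE, edgeR adjusted p = 0.1897). Those of miR-200b-3p, miR-200c-3p and miR-429-3p, with the seed AAUACUG, gave 0.01 ± 0.49 (SE, edgeR adjusted p = 0.998). Taken singly these rows had 0.10, -0.14 and -0.75. The difference between the seed groups was not tested.

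miR-200a-3p stood at 28292, 13148, 24628 and 32234 CPM before DSS and 16837, 5915 and 6874 CPM on day 5. Before-DSS library 2 and day 5 library 1 overlapped. The log2 fold change was -1.31 ± 0.53 (SE), and -1.94 without day 5 library 1. Without before-DSS library 2 and the recovery libraries it was -1.42 (edgeR adjusted p = 0.0341). miR-200b-3p, from the same cluster, stood at 14181 ± 4674 CPM (SD, n = 4) and 15149 ± 8231 CPM (SD, n = 3), a log2 difference of 0.10 ± 0.55 (SE). miR-141-3p had 32, 0, 25 and 30 counts before DSS and 2, 4 and 5 on day 5. Its 0 in before-DSS library 2 set it apart there from the other 3, and its log2 fold change was -2.14 ± 1.13 (SE, edgeR adjusted p = 0.294), and -2.48 in that fit (edgeR adjusted p = 0.00801). Of the phases compared, only the one before DSS met the filter on low counts for miR-141-3p, so these values are no support. Of 6 tested rows of the family 0 were higher and 2 lower at an unadjusted p under 0.05 (miR-200a-3p and miR-200a-5p), where 11.7% of all rows were lower, with a median of -0.93. The summed share of 4.49% ± 0.376 (SD, n = 4) before DSS and 3.64% ± 1.55 (SD, n = 3) on day 5 overlapped between the groups.

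MiRNAs of enteroendocrine and sensory cells gave 4 tested rows with a median of -0.34, and 0.02 with library totals alone. miR-182-5p had 199, 126, 80 and 206 counts before DSS and 79, 10 and 26 on day 5. The groups overlapped through day 5 library 1, and the log2 fold change was -1.75 ± 0.73 (SE, edgeR adjusted p = 0.176), and -2.65 without that library. It was the 1 unadjusted call of the list. Its neighbour miR-183-5p had -0.51 ± 0.58 (SE). miR-375-3p, of enteroendocrine and islet cells, had 0.12 ± 0.38 (SE), and miR-7a-5p had -0.17 ± 0.31 (SE). Neither of these was an unadjusted call.

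**Figure D4:**
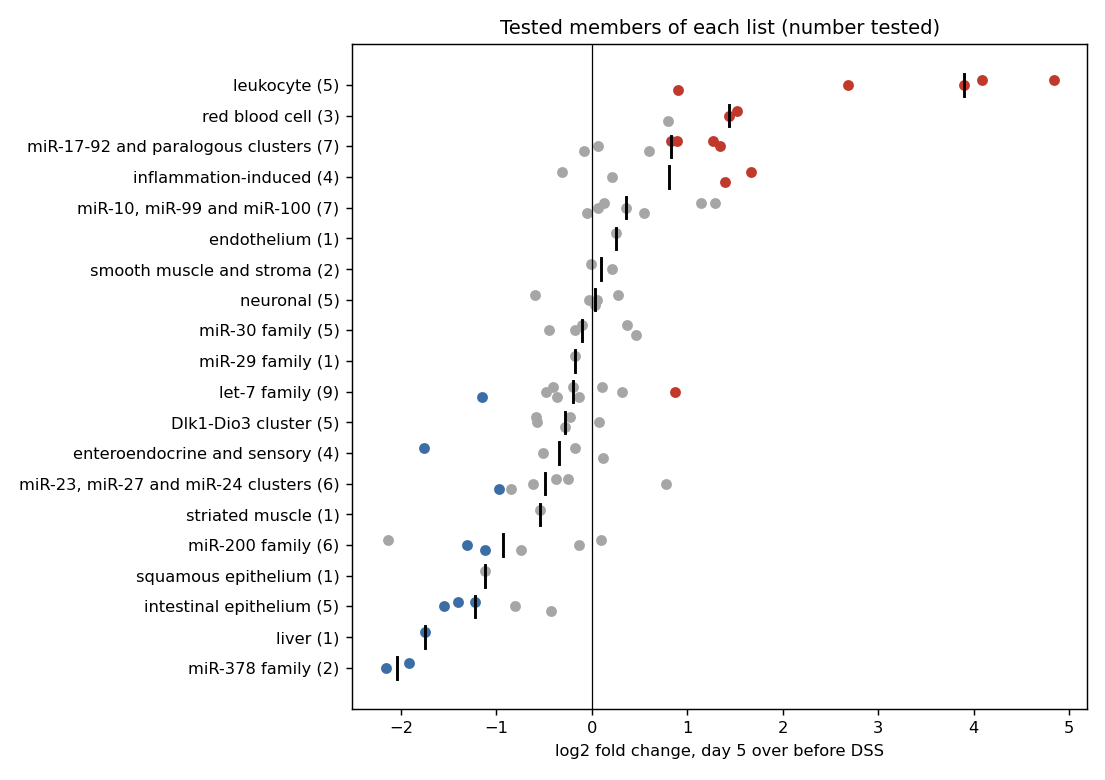
The log2 fold change of day 5 over before DSS (horizontal axis) is shown for each tested row of the miRNA lists, ordered by the list median (black bar), with the number tested in brackets. Coloured points had an unadjusted p under 0.05 and none passed adjustment; leukocyte members, of which 4 had at most 7 counts before DSS, lie at the higher end and the miR-378, liver and intestinal epithelium lists at the lower end.

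The miR-378 family, whose founder is encoded with a coactivator of oxidative metabolism, had lower values on day 5. miR-378a-3p had 800, 112, 812 and 986 counts before DSS and 227, 76 and 127 on day 5. Before-DSS library 2 was far below the rest of its group and within the range of day 5. It had a log2 fold change of -1.92 ± 0.76 (SE, edgeR adjusted p = 0.1695), and -2.16 with an edgeR adjusted p of 0.00801 in the fit without that library and the recovery libraries. miR-378c had 46, 4, 60 and 52 counts before DSS and 8, 5 and 8 on day 5, with a log2 fold change of -2.16 ± 0.90 (SE, edgeR adjusted p = 0.176), and -2.45 in the same reduced fit (edgeR adjusted p = 0.00671). These were the 2 tested rows of the family, both lower at an unadjusted p under 0.05 (11.7% of all rows), and before-DSS library 2 lay below every day 5 library for miR-378c. Of the phases compared, only the one before DSS met the filter on low counts for miR-378c, so this number of rows is no support for the family. The summed share was 2.79, 0.876, 4.25 and 3.74% before DSS and 1.32, 0.6504 and 1.17% on day 5.

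miR-122-5p, the main miRNA of liver, had 93, 19, 29 and 44 counts before DSS and 9, 8 and 14 on day 5. Every day 5 library was below the earlier group in CPM, and before-DSS library 1 was the highest. On the log2 scale it differed by -1.75 ± 0.62 (SE, edgeR adjusted p = 0.155). The row miR-122b-3p held identical counts and is not a separate measurement. miR-5126 had 43, 83, 50 and 42 counts before DSS and 16, 1 and 4 on day 5, and was the row of lowest p with lower values. Without overlap of the groups, the log2 fold change was -2.78 ± 0.72 (SE, edgeR adjusted p = 0.0983). It was -4.06 without day 5 library 1, and DESeq2 called it. Of the phases compared, only the one before DSS, where miR-5126 was high, met the filter on low counts. Neither the size of its fold change nor that call is therefore support. All bases of miR-5126 are G or C. miR-3473a had 6, 24, 25 and 8 counts before DSS and 4, 2 and 2 on day 5, with groups that did not overlap in TMM-scaled CPM and did by library total. Its log2 fold change was -2.32 ± 0.88 (SE, edgeR adjusted p = 0.164).

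The let-7 family, which restrains growth genes in differentiated cells, shares the seed GAGGUAG. Its 2 unadjusted calls, let-7i-5p and let-7c-5p, had fold changes of opposite sign, and their difference was not tested. let-7i-5p stood at 17810, 15691, 20828 and 19499.9 CPM before DSS and 29859, 39240.1 and 32217 CPM on day 5. All day 5 libraries were above the earlier group, with a log2 fold change of 0.87 ± 0.28 (SE, edgeR adjusted p = 0.155). DESeq2 called it, with an adjusted p of 0.0106. let-7c-5p stood at 14359, 6946, 8463 and 14923 CPM before DSS and 6484, 2798 and 5763 CPM on day 5. Every day 5 library was below the earlier group, with a log2 fold change of -1.15 ± 0.43 (SE, edgeR adjusted p = 0.164). With library totals alone the values of let-7i-5p and let-7c-5p were 1.28 and -0.71, so the signs were opposite with either scaling.

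The 7 other members lay between these. let-7f-5p, the most abundant before DSS, had -0.37 ± 0.37 (SE), let-7g-5p -0.20 ± 0.33 (SE) and let-7a-5p 0.10 ± 0.28 (SE). Their groups overlapped. Of the 9 tested members 1 was higher and 1 lower at an unadjusted p under 0.05, close to the 13.1% and 11.7% of all rows, so the counts are no result about the family. The members had a median of -0.20, and 0.24 with library totals alone. Summed over the seed the log2 fold change was -0.01 ± 0.34 (SE, edgeR adjusted p = 0.994). The summed share of the family was 8.38, 8.36, 9.004 and 8.22% before DSS and 8.88, 13.9 and 10.9% on day 5, where day 5 library 1 overlapped with the earlier group. These members differ by few bases, and the mismatches allowed in the counting are not given in the sources at hand, so reads may have been split among them.

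**Figure D5:**
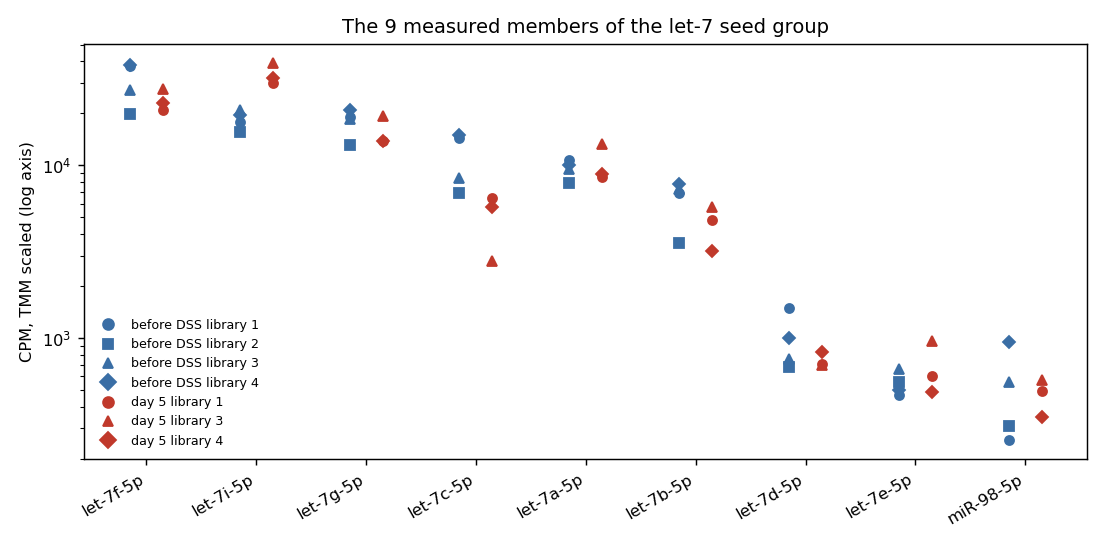
TMM-scaled CPM (vertical log axis) of the 9 members of the let-7 seed group in each of the 7 libraries, with blue for before DSS and red for day 5. let-7i-5p is higher and let-7c-5p lower in every day 5 library than in every library before DSS, and the groups of the others overlap.

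In the other lists miR-24-3p was the 1 unadjusted call. Of the neuronal list, miR-9-5p, a miRNA of neural progenitors that was abundant here, stood at 24719.6 ± 8517 CPM (SD, n = 4) and 25561 ± 4641 CPM (SD, n = 3), a log2 difference of 0.05 ± 0.69 (SE). The 5 tested rows had a median of 0.03. The miR-10, miR-99 and miR-100 list, with 7 tested rows and a median of 0.35, held miR-100-5p, at 7542, 8559, 9426 and 6168 CPM before DSS and 8119, 33707 and 10554 CPM on day 5. Day 5 library 3 alone stood apart. The log2 fold change of miR-100-5p was 1.14 ± 0.72 (SE), and 0.24 without that library. In the same list miR-125a-5p had 1.29 ± 0.77 (SE), with groups that overlapped.

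In the miR-23, miR-27 and miR-24 clusters, with 6 tested rows and a median of -0.49 (-0.03 with library totals alone), miR-24-3p had 174, 69, 147 and 177 counts before DSS and 92, 51 and 35 on day 5. Before-DSS library 2 and day 5 library 1 overlapped, with a log2 fold change of -0.97 ± 0.41 (SE, edgeR adjusted p = 0.184). miR-27b-3p had -0.85 ± 0.42 (SE, edgeR adjusted p = 0.255). In the fit without before-DSS library 2 and the recovery libraries miR-24-3p had -1.06 (edgeR adjusted p = 0.0341) and miR-27b-3p -1.02 (edgeR adjusted p = 0.0335). With all libraries miR-23a-3p, miR-23b-3p and miR-27a-3p had -0.38, -0.61 and -0.25. miR-27a-5p went the other way, with 10, 4, 7 and 7 counts before DSS, 10, 10 and 9 on day 5 and a log2 fold change of 0.78. It was the 1 tested row of these clusters whose groups did not overlap, and no unadjusted call. The miR-30 family, of 5 tested rows, had a median of -0.10, and 0.26 with library totals alone. Of the imprinted Dlk1-Dio3 cluster 25 of 29 rows were detected and 5 tested, with a median of -0.28, and 0.09 with library totals alone. None of the miR-30, neuronal, miR-10 or Dlk1-Dio3 rows was an unadjusted call.

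Of stroma and vessels, miR-143-3p of smooth muscle had -0.01 ± 0.38 (SE), miR-199a-3p of fibroblasts 0.21 ± 0.70 (SE) and miR-126a-3p of endothelium 0.25 ± 0.36 (SE). miR-1a-3p, of heart and skeletal muscle, had -0.54 ± 0.66 (SE), and miR-203-3p of squamous epithelium -1.12 ± 0.73 (SE). The value of miR-203-3p was -1.83 without day 5 library 1 and -0.62 without day 5 library 3. miR-29a-3p, the tested member of its family, had -0.18 ± 0.33 (SE). All of these groups overlapped and none was an unadjusted call. The pancreas and miR-34 lists had 0 tested rows. miR-216b-5p and miR-217-5p, of the pancreas, had 3 counts in all over the 7 libraries, and miR-34c-5p had 14, 10, 5 and 7 counts before DSS and 7, 6 and 8 on day 5. miR-206-3p, of skeletal muscle, had 18, 1, 8 and 7 before DSS and 0, 0 and 3 on day 5.

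Counts were also summed over rows that share a seed, which gave 107 units. By edgeR's quasi-likelihood test 1 of them passed adjustment (0.935%). It was GUCAGUU, which holds miR-223-3p alone, with a log2 fold change of 4.10 ± 0.84 (SE, edgeR adjusted p = 0.0367). The counts are those of the row test, which missed the threshold, and with 1 count in the whole earlier group they passed the filter through the later groups, so the call adds no support to the row. It was lost without before-DSS library 1, 2 or 3 and without day 5 library 1 or 4, with an adjusted p of up to 0.173. An unadjusted p under 0.05 was reached by 14 higher units (13.1%) and 9 lower (8.41%), 21.5% in all.

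Of the seeds with more than 1 tested member, GAGAACU (miR-146a and miR-146b) had a log2 fold change of 1.07 ± 0.35 (SE), AGCAGCA (miR-15 and miR-16) 1.47 ± 0.51 (SE) and ACAUUCA (miR-181) 0.89 ± 0.40 (SE). Their groups did not overlap and each was an unadjusted call. Among lower units, CAGUGCA (miR-148 and miR-152) had -1.18 ± 0.51 (SE), an unadjusted call, and UGACCUA (miR-192 and miR-215) -1.34 ± 0.69 (SE), which was not. Their groups overlapped. The 2 tested members of CAGUGCA had opposite signs, with -1.23 for miR-148a-3p and 0.55 for the other. Most counts of that unit were those of miR-148a-3p, so it mainly repeats that row. AUUGCAC (miR-25, miR-92 and miR-363) had 0.71 ± 0.36 (SE) and AAAGUGC (miR-17, miR-20, miR-93 and miR-106b-5p) 0.36 ± 0.33 (SE), neither of them an unadjusted call.

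Hairpins that lie within 10 kb of each other were compared by position on GRCm38.p6. The miR-106b, miR-93 and miR-25 hairpins lie at chr5:138165321-138165818 on the minus strand, those of miR-106b and miR-25 in an intron and an exon of Mcm7. Their tested rows had log2 fold changes of 1.26, 0.83 and 0.89. The miR-15b and miR-16-2 hairpins lie at chr3:69009772-69009996, that of miR-16-2 in an intron of Smc4, which encodes a condensin subunit. Their rows had 1.71 and 1.52, and miR-16-5p is also made from a hairpin in Dleu2 on chromosome 14. On chromosome 4, at chr4:156053905-156055750, the hairpins of miR-200a, miR-200b and miR-429 had rows with -1.31, 0.10 and -0.75. The differences between neighbours were not tested. On chromosome 19 miR-192-5p and miR-194-5p had -1.55 and -0.42. On chromosome 6 miR-141-3p and miR-200c-3p had -2.14 and -0.14.

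The miR-223 hairpin is at chrX:96242817-96242926, in an exon of the antisense RNA gene F630028O10Rik. That of let-7i lies at chr10:122985640-122985724 in an exon of the pseudogene D630033A02Rik. let-7c is made from hairpins in Mir99ahg on chromosome 16 and Lncppara on chromosome 15. The hairpins of miR-148a, miR-146a and miR-451a lie between annotated genes, at chr6:51269812-51269910, chr11:43374397-43374461 and chr11:78073170-78073241. That of miR-5126 lies opposite an exon of Dner, at chr1:84695839-84695915.

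Base composition was compared over the 113 tested rows that have a RefSeq sequence. The share of G and C in the mature sequence had a Pearson correlation of -0.28 and a Spearman correlation of -0.07 with the log2 fold change, across miRNAs that are not independent and share the same libraries. The median was 40.9% GC in the 15 higher and 52.4% in the 13 lower unadjusted calls with a sequence, and 45.5% over all 113. Length had correlations of 0.16 and 0.32. These are descriptions without a test, and the part of base composition or length in the fold changes was not tested.

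Some rows cannot be told apart by their reads. The mature sequences of 18 row pairs are reverse complements over at least 16 bases, and of the 13 such pairs with at least 50 counts 6 held totals within 1% of each other. Among these were miR-9-5p and miR-9b-3p, with 4955 and 4946 counts over the 11 libraries, and miR-24-3p and miR-3074-5p, with 1376 and 1375. Whether the counting used the strand is not stated in the labels. Such a pair is 1 measurement here, and the strand it comes from cannot be told apart.

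A few rows were at 0 in one of the phases compared. Of the 616 rows, 5 had 0 counts before DSS and at least 1 count in every day 5 library: miR-142a-3p, miR-142b, miR-671-3p, novel_160 and novel_240. The first 2 also had counts in the recovery libraries. miR-671-3p had 2, 2 and 2 counts on day 5. This was 4.38-fold higher in pooled CPM than the limit of 3 counts over the earlier group, with the counting error of the 6 counts left out. The exact 95% lower bound of its pooled ratio was 2.58, for counting error only. The reverse held for 3 rows, miR-329-5p, miR-3473b and miR-542-3p. They had 2, 1, 1 and 3, 5, 1, 4 and 2 and 1, 1, 1 and 1 counts in before-DSS libraries 1 to 4. A count of 0 in the 42075 counts of day 5 allows up to 3. The exact 95% upper bounds of their pooled ratios, for counting error only, were 1.52, 0.788 and 3.32. Those of miR-329-5p and miR-542-3p thus allow no change. All rows of this paragraph were picked by their zeros, so the zeros are no support. None of these rows other than miR-142a-3p and miR-142b passed the filter on low counts.

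Numbered rows, which have no miRNA name in the table, took 0.289% to 0.355% of the counts in the libraries before DSS and 0.867% to 4.16% on day 5. This was noticed after the values were seen. novel_249 had 3, 0, 7 and 1 counts before DSS and 29, 7 and 30 on day 5, without overlap, and a log2 fold change of 3.27 ± 0.84 (SE, edgeR adjusted p = 0.0983). It was 4.28 without before-DSS library 3, and DESeq2 called it. With 11 counts in the whole earlier group, this row passed the filter on low counts through the later groups. Neither the size of its fold change nor that call is therefore support. novel_240 had 5, 17 and 4 counts on day 5 and 0 before. Others rested on 1 library. novel_214 had 326 of its 329 day 5 counts in library 4, novel_363 had 83, 6 and 0 counts on day 5 and novel_160 had 5, 1 and 45.

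The spread of counts over rows was wider on day 5 than in 3 of the 4 libraries before DSS. The effective number of rows, the exponential of the Shannon entropy, was 26.03, 46.6, 31.8 and 23.9 in before-DSS libraries 1 to 4 and 39.1, 44.4 and 46.1 on day 5. Before-DSS library 2 was the highest of all 7, so the groups overlapped, with p = 0.229 in an exact two-sided permutation test. The number of rows expected at 10000 counts was 243, 265, 248 and 232 before DSS and 261, 282 and 280.4 on day 5, with an exact p of 0.114. With 3 against 4 libraries such a test cannot go below 0.0571. Over the 25 values per library compared in this way, list shares included, the lowest adjusted p was 0.317.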

How the data were processed

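Per the labels' protocols, RNA was extracted from homogenized feces with the mirVana kit, TruSeq small RNA libraries were sequenced on a HiSeq 2500, and ACGT101-miR removed junk reads, other RNA classes and repeats. For the aligner, the miRNA reference and the build: not given in the sources used here. The authors deposited raw counts per miRNA row, which were used as they are. The 11 other value columns of the table were not used. The protocols speak of fewer libraries than the 11 samples. The columns of the earlier phase carry another day name than the titles and were assigned to the 1 group of 4 left, and those of day 5 to their group only. No library was a repeat of another of its group within counting noise (lowest chi-square 3.85 per degree of freedom).

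Counts of all 11 libraries were tested with edgeR 4.0.16 in R 4.3.3 (quasi-likelihood F-test, TMM factors, default low-count filter, leaving 137 rows with 94.1% to 98.2% of a library's counts), with Benjamini-Hochberg adjustment and a threshold of 0.05. In simulated data for this comparison on 137 rows, of the rows that passed the filter 100% with a true log2 change of 3 were called, 53.3% at 2 and 7.14% at 1. For lower values 77.8% were called at -3 and 86.2% at -2. The same rows were changed in each of 5 runs, from their mean over all libraries. These shares therefore do not hold for rows near 0 before DSS. Values per library were compared by exact permutation tests, two-sided, with scipy 1.17.1. Sequences of 461 of the 544 named rows were matched to RefSeq (GRCm38.p6), and positions within genes come from the annotation of that build. Named rows are the 10 of smallest p in each direction, the 10 most abundant, up to 3 tested rows of each of 22 lists by abundance, miR-142a-3p, and rows at 0 in 1 phase and detected in every library of the other. Identical rows count as 1 there, and in list counts and shares so do rows of a list whose counts differ by at most 5% in sum (the miR-486 rows), a choice made after seeing the data. Members and lists were chosen with earlier results of these data known. Rows outside the rule, such as miR-223-5p, miR-146b-5p and miR-141-3p, are named as other members of a list, seed or hairpin cluster. Same-numbered libraries before DSS and on day 5 had correlations of 0.10, 0.13 and -0.10 in their deviations from the group means. Pairs with unlike numbers had -0.20 to 0.24. With so few libraries this cannot decide whether the numbers pair them, and the main fit used no pairing.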

Additional observations from a re-analysis of the deposited data

Results flagged for a closer look

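Of 79 values of named rows and shares that were above 0 in all 4 libraries before DSS, 2 had a library far from the others, where chance flags about 1 in 20. For miR-129-5p before-DSS library 2 was the highest, with 1861 CPM where the others had 767, 861 and 895, and its gap to the next was 0.883 of the group's range. For the liver share before-DSS library 1 was the highest, with 0.306% where the others had 0.144%, 0.141% and 0.158%, and its gap was 0.897 of the range.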

How the results depend on the processing

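Over 25 alternatives, 37 of the 56 tested named rows kept their sign, and the 19 others had log2 fold changes of at most 0.368 in size. Of the 56, 25 passed the adjusted threshold under at least 1 alternative. The count of calls, 0 by edgeR with TMM factors, was 11 with library totals only, 15 (11 higher and 4 lower) with no filter, 5 with at least 10 CPM in at least 3 libraries, 5 with DESeq2, 29 with 6 libraries, and 0 to 2 leaving out each library. It was 16 (5 higher and 11 lower) with column number as replicate block, a pairing that the labels do not give and that was not settled here. Unadjusted calls were 64 with no filter, 58 with the 10 CPM filter, 52 with 6 libraries, and 17 to 35 leaving out each library of the 7. They were 22 higher and 11 lower without numbered rows, and 22 and 11 without antisense partner rows. Seed calls, 1 at first, were 10 with library totals only, 7 with the block, and 0 to 1 leaving out each library. Rows below the filter could not be fitted in every alternative.

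Log2 fold changes that reversed sign were these, and the cause was not tested. With library totals only the values were miR-21a-5p 0.14, let-7f-5p 0.10, miR-200c-3p 0.19, miR-7a-5p 0.20, miR-143-3p 0.38, miR-128-3p 0.29, let-7g-5p 0.24, miR-30a-5p 0.26, miR-30e-5p 0.25, miR-99a-5p 0.30, miR-27a-3p 0.21, miR-29a-3p 0.17, miR-127-3p 0.13 and miR-381-3p 0.085. With limma-voom the values were miR-200b-3p -0.037, miR-143-3p 0.0040 and miR-128-3p 0.051. Without numbered rows the values were miR-200c-3p 0.017, miR-7a-5p 0.0087, miR-143-3p 0.18, miR-128-3p 0.15, let-7g-5p 0.013, miR-30a-5p 0.076, miR-30e-5p 0.015, miR-99a-5p 0.13 and miR-29a-3p 0.0037. With TMMwsp scaling the values were miR-143-3p 0.069, miR-128-3p 0.060 and miR-99a-5p 0.039. With no filter the values were miR-143-3p 0.046 and miR-128-3p 0.029. With the 10 CPM filter the values were miR-143-3p 0.046 and miR-128-3p 0.031. With 7 libraries the value was miR-143-3p 0.011. With the replicate block the values were miR-143-3p 0.14, miR-128-3p 0.27, miR-99a-5p 0.21 and miR-127-3p 0.034. With identical rows merged the values were miR-143-3p 0.14, miR-128-3p 0.11, miR-30a-5p 0.036 and miR-99a-5p 0.090. Without antisense partner rows the values were miR-143-3p 0.16, miR-128-3p 0.13, miR-30a-5p 0.051 and miR-99a-5p 0.11. With 6 libraries the values were miR-143-3p 0.078, miR-128-3p 0.30, miR-99a-5p 0.12 and miR-381-3p 0.033. Without the 5 most abundant rows the value was miR-129-5p -0.022. Leaving out each of the 7 libraries, the range crossed 0 for miR-9-5p (-0.13 to 0.33), miR-9b-3p (-0.14 to 0.33), miR-200b-3p (-0.32 to 0.46), miR-200c-3p (-0.64 to 0.14), miR-143-3p (-0.11 to 0.13), miR-128-3p (-0.23 to 0.30), miR-129-5p (-0.26 to 0.47), miR-10a-5p (-0.021 to 0.17), miR-99a-5p (-0.18 to 0.12), miR-27a-3p (-0.60 to 0.028), miR-29a-3p (-0.31 to 0.0065) and miR-381-3p (-0.66 to 0.051). The difference in share, in percentage points, crossed 0 for enteroendocrine and sensory (-0.37 to 0.0769), pancreas (-0.00164 to 0.00284), miR-29 family (-0.0281 to 0.029) and Dlk1-Dio3 cluster (-0.102 to 0.164).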
